A study of Mus musculus with 14 samples.

Results

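The genes described here are the potassium channel genes of the mouse, chosen as every gene in the deposited count table whose symbol starts with Kcn followed by letters and a digit. There were 94 such genes among 23412 in the table. By subfamily they fall into 40 genes for pore-forming subunits of voltage-gated channels (Kcna, Kcnb, Kcnc, Kcnd, Kcnf, Kcng, Kcnh, Kcnq, Kcns and Kcnv), 8 for channels opened by intracellular calcium or sodium (Kcnma, Kcnn, Kcnt and Kcnu), 15 inward rectifiers (Kcnj), 14 two-pore-domain leak channels (Kcnk), 16 auxiliary subunits (Kcnab, Kcne, Kcnip and Kcnmb) and 1 overlapping RNA, Kcnq1ot1. The study measured RNA and ribosome footprints, the short pieces of mRNA that ribosomes shield from nuclease, in the brain cortex of control mice and of mice lacking Fmr1 (KO). Fmr1 encodes FMRP, an RNA-binding protein whose loss causes fragile X syndrome in people. All mice carried floxed alleles of the ribosomal protein gene Rpl22 and a CamK-driven Cre, a driver used for excitatory neurons of the forebrain, and the labels write the KO genotype as that of males. The labels give no age and name no step that pulls down tagged ribosomes. RNA came from control mice 1, 3, 6 and 8 and KO mice 2, 4, 5 and 7, and footprints from control mice 1, 3 and 9 and KO mice 2, 4 and 10, with 1 library per mouse and assay. Values below are listed in that order of mice.

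Potassium channels let potassium leave or enter the cell, and so set the resting potential, end action potentials and limit repetitive firing. Voltage-gated channels assemble from pore-forming subunits, whose speed and place in the membrane are tuned by auxiliary subunits, while inward rectifiers and two-pore-domain channels hold the membrane near rest. FMRP has been reported to bind the mRNA of several voltage-gated channels, among them the Kv3 and Kv4 families, and to bind the sodium-activated channel Kcnt1 and the BK channel subunit Kcnmb4 as proteins.

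Total counts were 8847547 to 11371851 per RNA library and 4124065 to 6033030 per footprint library. Levels are given as CPM, a gene's count scaled to a common library size, after TMM, which corrects for differences in the makeup of the libraries. CPM is not divided by gene length, so levels are compared between mice and not between genes. Fmr1, the deleted gene, had 71.3 to 89.9 CPM in control RNA against 18.1 to 23.4 CPM in KO RNA, and 111 to 115 CPM in control footprints against 5.82 to 8.54 CPM in KO footprints. Some libraries of a genotype were closer to each other than the rest. Their likeness was measured by a chi-square per degree of freedom over genes, which is near 1 for pairs that differ by counting noise alone. Pairs among the RNA libraries of KO mice 2, 4 and 7 had 1.18 to 1.32, other RNA pairs of a genotype 1.99 to 11.8, and footprint pairs of a genotype 1.15 to 1.42. Whether the close libraries come from separate tissue samples is not given by the labels, and the p-values measure the spread between these libraries, which may in part be technical. Excitatory neuron markers (6 genes) summed to 1677 to 1831 CPM in control RNA and 1956 to 2026 CPM in KO RNA, and hypothalamus markers (6 genes) to 34.4 to 65.3 CPM and 15 to 21.2 CPM. Their part in the results on channel genes was not tested. In bulk samples, fewer cells of a type and less RNA per cell cannot be told apart.

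Enough counts for a test were present for 74 of the 94 genes in RNA and for 70 in footprints, and the same 70 were tested in the footprint to RNA ratio, the footprint level of a gene relative to its RNA level. Genes with an adjusted p-value under 0.05 in edgeR's quasi-likelihood test are called below. In RNA, 11 of the 74 genes were called, where 7.41% of all 13507 genes tested were. Higher in KO mice were 9 (3.53% of all genes), among them Kcna2, Kcnab1, Kcnab3, Kcnip2, Kcnj3, Kcnj9, Kcnj10 and Kcnk4. Lower were 2 (3.88% of all genes): Kcne1l and Kcnj13. DESeq2 called 11 higher and 0 lower, and gave Kcne1l and Kcnj13 no adjusted p-value. In footprints 19 of 70 were called, close to the 25.5% of all 12158 genes tested. Of these, 13 were higher (11.9% of all genes): Kcna1, Kcnab3, Kcnd2, Kcnf1, Kcnh3, Kcnh7, Kcnip3, Kcnip4, Kcnj3, Kcnn2, Kcns3, Kcnt2 and Kcnv1. The other 6 were lower (13.6% of all genes): Kcna4, Kcna6, Kcng1, Kcnh2, Kcnj13 and Kcnk9. In the ratio 7 of 70 were called, where 7.81% of all 12145 genes were. Kcnh3 and Kcnip4 were higher (3.4% of all genes), and 5 were lower (4.41% of all genes), among them Kcna6, Kcnab1, Kcnj10 and Kcnk9. On plain library sizes, without TMM, the calls split into 19 higher and 6 lower in footprints and 2 higher and 2 lower in the ratio, and the share of higher genes among all calls went from 46.7% to 66.3% in footprints and from 43.5% to 67.6% in the ratio. Leaving out 1 mouse moved the RNA count to 6 (mouse 1), 3 (mouse 2 or 4), 5 (mouse 3), 4 (mouse 6 or 7) or 17 (mouse 8), and the ratio count to 3 (mouse 1 or 4), 2 (mouse 2) or 4 (mouse 3, 6 or 10). Within the RNA libraries of mice 1 to 4 alone 22 genes were called, and within those of mice 5 to 8 alone 1. With a block for the prefix that library titles share across genotypes, whose meaning the labels do not give, the counts of called genes were 9 (RNA), 20 (footprints) and 5 (ratio). When the RNA counts of KO mice 2, 4 and 7 were added up as 1 library, 2 genes were called in RNA (Kcnj10 and Kcnab1) and 3 in the ratio (Kcnh3, Kcnj10 and Kcnab1). Calls over all genes are not given for these subsets and blocks, so the counts do not show whether channel genes moved more than others.

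The median log2 fold change of the 74 genes in RNA was 0.10, with 53 above 0, against a median of -0.0012 over all genes tested. In footprints the median of the 70 genes was 0.037, with 39 above 0, against 0.0054. In the ratio it was -0.094, with 24 above 0, against -0.011. Most tested potassium channel genes thus had somewhat more RNA in KO mice and somewhat fewer footprints for that RNA, by amounts that for most of them did not pass the test. The RNA median was 0.046 in mice 5 to 8 alone, and the ratio median was -0.030 on plain library sizes and -0.031 in the exon columns. On plain library sizes the ratio median over all genes rose as well, from -0.011 to 0.054. Summed over the 93 genes with values in these columns, potassium channel RNA took 4433 to 4747 CPM in control mice and 4886 to 5118 CPM in KO mice, and their footprints 3581 to 3636 CPM and 3853 to 3934 CPM. Neither sum overlapped between the genotypes. Without Kcnh3 the footprint sums were 3522 to 3533 CPM and 3625 to 3690 CPM. Of the 28 genes called in any measure, 3 were called in both RNA and footprints (Kcnab3, Kcnj3 and Kcnj13), each in the same direction.

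**Figure D1:**
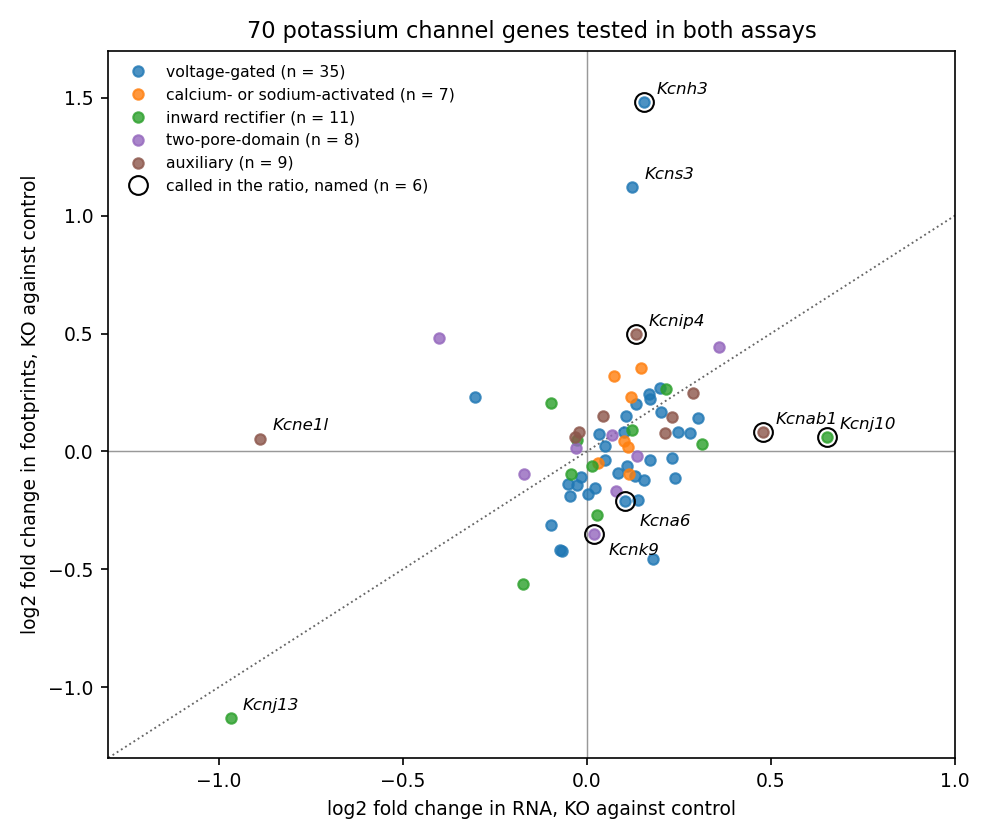
Log2 fold change of KO against control mice in footprints (y axis) against that in RNA (x axis) for the 70 potassium channel genes tested in both assays, coloured by class, with 6 genes called in the footprint to RNA ratio circled and named. On the dotted line both changes are equal; Kcnh3 lies far above it (0.16 in RNA, 1.48 in footprints) and Kcnj10 far below it (0.65 and 0.06).

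Kcnh3 stood apart from all other channel genes. It encodes Kv12.2 (Elk2), a voltage-gated channel of the ether-a-go-go family that is open near the resting potential of forebrain neurons. Its footprints were at 55.9, 103 and 92.1 CPM in control mice and 228, 250.2 and 243 CPM in KO mice. Every KO library was far above every control library, and control mouse 1 was well below the other controls. The means were 83.7 ± 24.7 CPM and 241 ± 11.2 CPM (SD, n = 3 each), a 2.87-fold rise, or 1.48 ± 0.065 on the log2 scale (SE, edgeR adjusted p = 6.54e-37). This SE comes from the edgeR fit and is small beside the spread of the control libraries. With DESeq2 the change was 1.52 (adjusted p = 1.45e-07). The edgeR change was rank 21 from the highest log2 fold change among the 12158 genes tested in footprints. Its RNA was at 195, 189, 213 and 226 CPM in control mice and 228, 223, 234 and 231 CPM in KO mice. The KO mice were at the top of the range, with control mouse 8 among them, and the change of 0.16 ± 0.06 (SE) was not called (edgeR adjusted p = 0.129). It was called without control mouse 8 (0.21, edgeR adjusted p = 0.0207) and in mice 1 to 4 alone (0.24, edgeR adjusted p = 0.000275). Footprints per RNA, taken as CPM over CPM, went from 0.287 and 0.545 in control mice 1 and 3 to 1.001 and 1.119 in KO mice 2 and 4. The ratio rose by 1.34 ± 0.15 on the log2 scale (SE, edgeR adjusted p = 1.33e-05), rank 10 from the highest among 12145 genes. Both calls were kept under each alternative tried, with log2 changes of 1.30 to 1.66 in footprints (11 alternatives) and 1.16 to 1.56 in the ratio (18 alternatives). In RefSeq Kcnh3 overlaps Mcrs1, whose footprints were at 5.67 ± 1.55 CPM in control mice and 7.0 ± 0.46 CPM in KO mice (n = 3 each, SD). The strand setting of the counting is not given in the sources used here, so reads of overlapping genes cannot be told apart by strand.

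The other members of the Kcnh subfamily did not share this pattern. Kcnh2, the ERG channel, which repolarizes slowly and is known for its part in the heartbeat, had footprints at 30.7, 30.4 and 28.5 CPM in control mice and 22.5, 21.7 and 22.6 CPM in KO mice. The groups did not overlap, and footprints fell by 0.42 ± 0.11 on the log2 scale (SE, edgeR adjusted p = 0.00296), a call kept in 11 of 11 alternatives. Kcnh2 RNA had a log2 fold change of -0.07 ± 0.07 (SE, edgeR adjusted p = 0.584), and its ratio one of -0.36 ± 0.12 (SE, edgeR adjusted p = 0.07). Kcnh7, the related ERG3 channel, rose in footprints by 0.24 ± 0.061 (SE, edgeR adjusted p = 0.00107), from 91.6 ± 4.70 to 108 ± 6.21 CPM (SD, n = 3 each). Over the 7 Kcnh genes tested in footprints, log2 fold changes ran from -0.46 to 1.48, with 3 above 0.

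Among the Kv1 genes (Kcna), whose channels line axons and nerve terminals and hold back repetitive firing, 1 of 6 tested was called in RNA (7.41% of all genes) and 3 of 6 in footprints (25.5% of all genes). Kcna2 RNA rose by 0.25 ± 0.051 (SE, edgeR adjusted p = 0.0116), from 127 ± 2.83 to 151 ± 5.6 CPM (SD, n = 4 each), while its footprints had a log2 fold change of 0.08 ± 0.055 (SE, edgeR adjusted p = 0.291). Kcna1 footprints rose by 0.22 ± 0.061 (SE, edgeR adjusted p = 0.00329). In contrast, footprints fell for Kcna4, the inactivating Kv1.4 subunit, by 0.31 ± 0.092 (SE, edgeR adjusted p = 0.00658), a call lost without KO mouse 4 and with DESeq2. Kcna6, which encodes Kv1.6, had footprints at 116, 122 and 110.2 CPM in control mice and 104, 99.0 and 98.7 CPM in KO mice. All KO libraries were below all controls, and footprints fell by 0.21 ± 0.058 (SE, edgeR adjusted p = 0.00313). The Kcna6 footprint call was lost without control mouse 3, and this call and that of Kcna1 were lost in a single edgeR fit over all 14 libraries. Its RNA was at 62.1, 63.0, 60.1 and 54.2 CPM in control mice and 65.5, 68.1, 64.4 and 58.9 CPM in KO mice, with overlap. The Kcna6 ratio fell by 0.32 ± 0.096 (SE, edgeR adjusted p = 0.043). This call was lost in 10 of 18 alternatives, among them without mouse 1 (edgeR adjusted p = 0.0726), 2 (0.113), 3 (0.0997), 4 (0.178), 6 (0.067), 8 (0.0515) or 10 (0.105) and on plain library sizes (0.102). Over the 35 voltage-gated genes tested in the ratio, 9 were above 0, and the median was -0.16.

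The electrically silent subunits (Kcnf, Kcng, Kcns and Kcnv) pass no current alone and modify Kv2 channels. Kcns3, which encodes Kv9.3, had footprints at 1.89, 1.87 and 1.95 CPM in control mice and 4.98, 5.37 and 2.30 CPM in KO mice, from 8 to 24 counts per library. KO mice 2 and 4 were well above the controls and KO mouse 10 just above them. Footprints rose 2.22-fold, 1.1 ± 0.35 on the log2 scale (SE, edgeR adjusted p = 0.0104), and the call was lost without KO mouse 2 (edgeR adjusted p = 0.0715) or 4 (0.126). The Kcns3 ratio, at 1.0 ± 0.33 (SE, edgeR adjusted p = 0.0689), was called with the mouse as a block, which pairs the RNA and footprint libraries of mice 1 to 4 (1.34, edgeR adjusted p = 0.0182). Kcng1, which encodes Kv6.1, had footprints at 31.4, 32.4 and 30.5 CPM in control mice and 21.1, 22.8 and 26.2 CPM in KO mice. The groups did not overlap, and footprints fell by 0.42 ± 0.11 (SE, edgeR adjusted p = 0.00233), a call kept in 11 of 11 alternatives. Kcng1 RNA was at 9.0 ± 0.627 CPM in control mice and 8.63 ± 1.17 CPM in KO mice (n = 4 each, SD, log2 fold change -0.07, edgeR adjusted p = 0.795). Kcnf1 and Kcnv1 rose in footprints by 0.17 ± 0.05 (SE, edgeR adjusted p = 0.00724) and 0.15 ± 0.049 (SE, edgeR adjusted p = 0.0165). Both calls were lost with DESeq2 and in the single fit over all 14 libraries, the Kcnf1 call also without control mouse 9, and the Kcnv1 call also without mouse 2, 3 or 9.

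**Figure D2:**
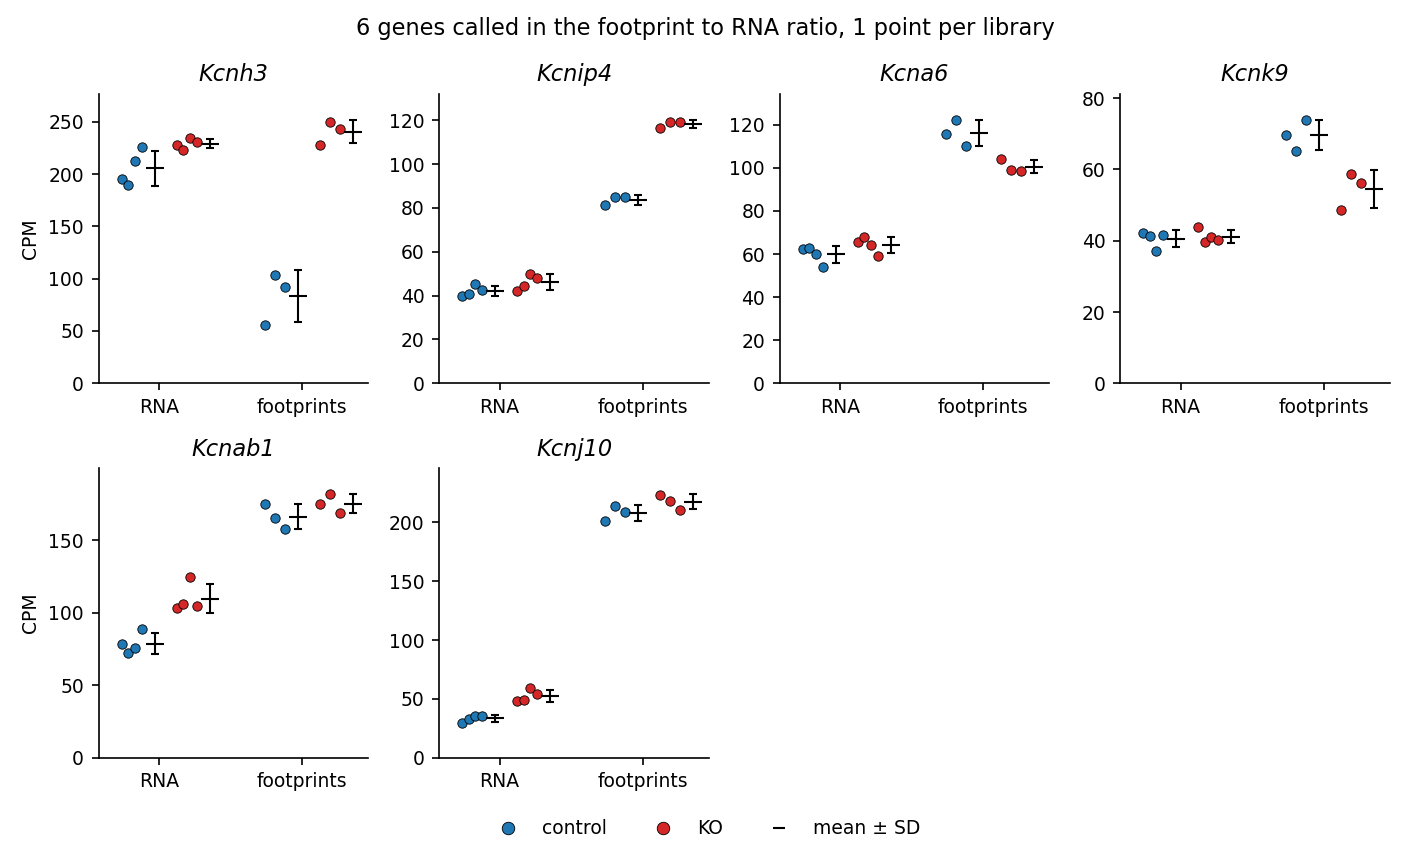
CPM per library (y axis, from 0) in RNA (4 control, 4 KO libraries) and footprints (3 control, 3 KO) of 6 genes called in the footprint to RNA ratio, with mean ± SD beside each group. Kcnh3 and Kcnip4 differ between genotypes mainly in footprints, Kcnj10 and Kcnab1 mainly in RNA, and Kcna6 and Kcnk9 mainly in footprints in the opposite direction.

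The channel genes reported as FMRP targets or partners were examined whatever their result. None of the 7 described here (Kcnc1, Kcnc2, Kcnc4, Kcnd2, Kcnma1, Kcnmb4 and Kcnt1) was called in RNA or in the ratio by edgeR, with 1 of them at an unadjusted p-value under 0.05 in each, and DESeq2 called 0 in both. In footprints edgeR called 1 (Kcnd2) and DESeq2 called 0. Among all genes edgeR called 7.41% in RNA, 7.81% in the ratio and 25.5% in footprints. With only 7 genes, these counts do not show fewer calls than among all genes. The medians of the 7 were 0.11 in RNA (6 of 7 above 0), -0.060 in footprints (3 of 7) and -0.10 in the ratio (1 of 7).

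Kv3 channels (Kcnc) open and close fast and let neurons fire at high rates. Kcnc1 RNA was at 74.2, 74.4, 78.2 and 75.9 CPM in control mice and 79.6, 84.4, 82.1 and 80.2 CPM in KO mice, and its footprints at 64.0, 64.8 and 62.9 CPM and 58.8, 62.5 and 62.4 CPM. KO mice were higher in RNA and lower in footprints with no overlap, by 0.11 ± 0.054 and -0.06 ± 0.074 (SE, edgeR adjusted p = 0.241 and 0.611). The Kcnc1 ratio was at -0.18 ± 0.083 (SE, edgeR adjusted p = 0.204). Kcnc2 and Kcnc4 had log2 fold changes of -0.05 and 0.0034 in RNA, -0.14 and -0.18 in footprints, and -0.09 and -0.19 in the ratio, none called.

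Kcnd2 encodes Kv4.2, the main carrier of the A-type current in dendrites. Its footprints were at 95.1, 95.7 and 92.7 CPM in control mice and 107, 107 and 112 CPM in KO mice. Every KO library was above every control, and footprints rose by 0.20 ± 0.059 (SE, edgeR adjusted p = 0.00601). The call was lost without KO mouse 10 (edgeR adjusted p = 0.0519), with DESeq2 (0.0575) and in a single edgeR fit over all 14 libraries (0.0872). Kcnd2 RNA was at 125, 118, 118 and 109 CPM in control mice and 133, 130.0, 115 and 137 CPM in KO mice, with KO mouse 5 inside the control range, a log2 fold change of 0.13 ± 0.064 (SE, edgeR adjusted p = 0.227). The Kcnd2 ratio was at 0.06 ± 0.094 (SE, edgeR adjusted p = 0.77), the only one of the 7 above 0.

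Kcnma1 is the pore of the BK channel, opened by calcium and voltage together, and Kcnmb4 its neuronal beta subunit, which slows its gating. Kcnma1 RNA was at 276, 265, 277 and 282 CPM in control mice and 270.4, 278, 374 and 269 CPM in KO mice. All KO mice except mouse 5 were within or near the control range, and the log2 fold change was 0.11 ± 0.089 (SE, edgeR adjusted p = 0.489). Kcnma1 footprints were at 136, 135 and 134 CPM and 129.5, 129 and 151 CPM, at 0.02 ± 0.053 (SE, edgeR adjusted p = 0.825). Kcnmb4 RNA was at 46.7, 41.6, 51.8 and 57.4 CPM in control mice and 61.4, 58.4, 50.3 and 61.6 CPM in KO mice. Control mouse 8 and KO mouse 5 were nearer to the other genotype, and the log2 fold change of 0.23 ± 0.097 (SE, edgeR adjusted p = 0.161) was called without control mouse 8 (0.32, edgeR adjusted p = 0.0238). Kcnmb4 footprints were at 18.8 ± 2.24 CPM and 20.8 ± 2.46 CPM (SD, n = 3 each, edgeR adjusted p = 0.469).

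Kcnt1 encodes Slack, a channel opened by sodium that enters during firing. Its RNA was at 91.7, 91.8, 92.0 and 106 CPM in control mice and 107, 108, 90.6 and 108 CPM in KO mice. Control mouse 8 sat among the KO mice and KO mouse 5 below all controls, and the log2 fold change of 0.12 ± 0.071 (SE) was not called (edgeR adjusted p = 0.36). In mice 1 to 4 alone it was 0.24 (edgeR adjusted p = 0.00299). Kcnt1 footprints were at 65.1, 59.2 and 62.7 CPM in control mice and 59.8, 52.4 and 62.2 CPM in KO mice, with overlap (-0.09 ± 0.077 SE, edgeR adjusted p = 0.409). The Kcnt1 ratio was at -0.22 ± 0.12 (SE, edgeR adjusted p = 0.265) and was called with the mouse as a block (-0.38, edgeR adjusted p = 0.00748). Kcnt2, the related Slick channel, rose in footprints by 0.32 ± 0.076 (SE, edgeR adjusted p = 0.000519), from 56.2 ± 2.95 to 70.4 ± 6.65 CPM (SD, n = 3 each). Among the calcium- and sodium-activated genes, Kcnn2, the SK2 channel that follows a spike with a long hyperpolarization, also rose in footprints. It was at 25.3, 28.8 and 26.4 CPM in control mice and 32.7, 37.6 and 33.1 CPM in KO mice, with no overlap, a change of 0.35 ± 0.11 (SE, edgeR adjusted p = 0.00743) that was lost without KO mouse 4 (edgeR adjusted p = 0.0752) and with DESeq2 (adjusted p = 0.0646). None of the 7 calcium- or sodium-activated genes tested was called in RNA by edgeR or DESeq2, and none was at an unadjusted p-value under 0.05 there. Among all genes edgeR called 7.41% in RNA.

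**Figure D3:**
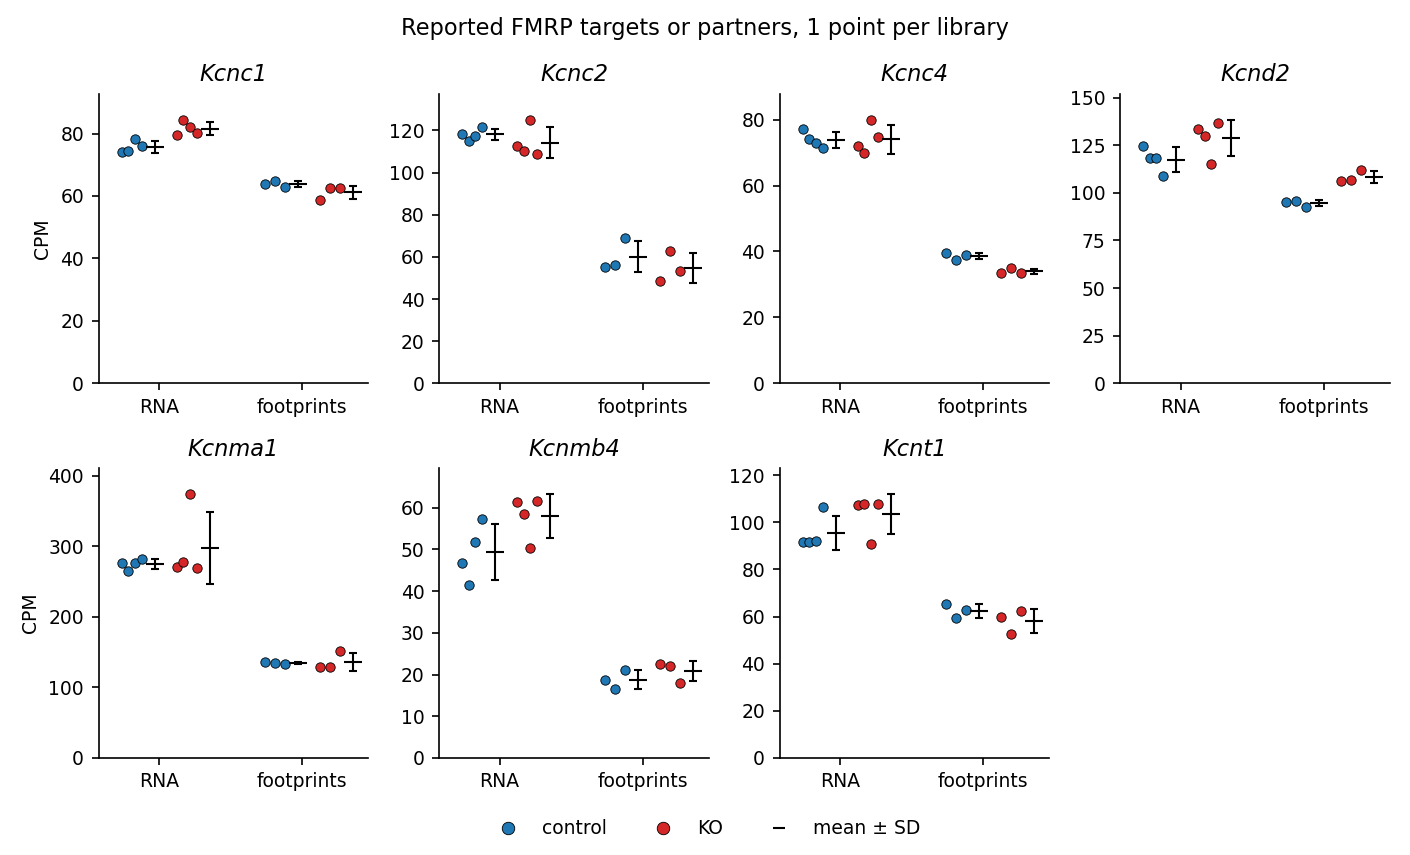
CPM per library (y axis, from 0) in RNA and footprints of 7 channel genes reported as FMRP targets or partners, control mice in blue and KO mice in red, with mean ± SD beside each group. Kcnd2 footprints, the only called change among these, lie apart between genotypes, and KO mouse 5 stands out in Kcnma1 RNA at 374 CPM.

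**Figure D4:**
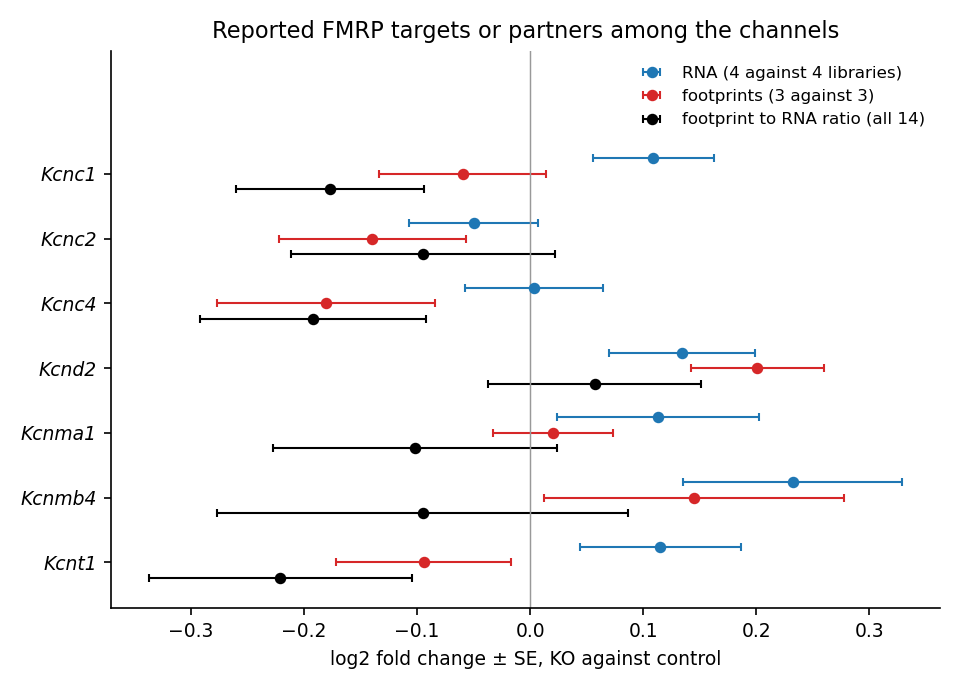
Log2 fold change ± SE (x axis) of KO against control mice in RNA, footprints and the footprint to RNA ratio for the same 7 genes (y axis). In the ratio 6 of the 7 lie below 0, with none called.

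Among the inward rectifiers, 4 of 12 were called in RNA (7.41% of all genes) and 2 of 11 in footprints, under the 25.5% of all genes. Kcnj10 encodes Kir4.1, the channel by which astrocytes and oligodendrocytes take up potassium released by neurons. Its RNA was at 30.0, 32.6, 35.7 and 35.6 CPM in control mice and 48.1, 48.8, 59.4 and 54.5 CPM in KO mice. All KO libraries were far above all controls. RNA rose from 33.5 ± 2.71 to 52.7 ± 5.30 CPM (SD, n = 4 each), by 0.65 ± 0.087 on the log2 scale (SE, edgeR adjusted p = 0.000805), the largest rise in RNA among the channel genes. Its footprints did not separate, with 201, 214 and 208 CPM in control mice and 223, 218 and 210.5 CPM in KO mice (0.06 ± 0.042 SE, edgeR adjusted p = 0.318). The Kcnj10 ratio fell by 0.60 ± 0.10 (SE, edgeR adjusted p = 0.000655). Each RNA library also has a second column whose header ends in exon, in which Kcnj10 was at 140.2, 139, 152 and 140.0 CPM in control mice and 173, 169, 179 and 178 CPM in KO mice. The first columns held 11.6% to 18% of the exon columns' counts for this gene. In the exon columns the rise in RNA was 0.29 (edgeR adjusted p = 0.00339) and the ratio was at -0.22 and no longer called (edgeR adjusted p = 0.0585). The RNA call was kept in 17 of 17 alternatives and the ratio call in 17 of 18. Astrocyte markers (6 genes) summed to 981 to 1077 CPM in control RNA and 930.1 to 1091 CPM in KO RNA, with Gfap and Aqp4 called lower and none higher, and to 1670.2 to 1714 CPM and 1559 to 1575 CPM in footprints, with Gfap and Gja1 called lower. Their part in the result was not tested.

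Kcnj9, which encodes the G-protein-gated subunit GIRK3, is the neighbour of Kcnj10 on chromosome 1. Its RNA was at 57.7, 59.9, 61.7 and 61.1 CPM in control mice and 79.7, 76.2, 67.9 and 74.6 CPM in KO mice, with no overlap. RNA rose by 0.31 ± 0.064 (SE, edgeR adjusted p = 0.011), while footprints had a log2 fold change of 0.03 ± 0.084 (SE, edgeR adjusted p = 0.837). In the exon columns the RNA change was 0.02 (edgeR adjusted p = 0.837), and the call was also lost without KO mouse 2 (0.0557) or 4 (0.0504). Kcnj3, the GIRK1 subunit with which other GIRK subunits assemble, rose in RNA from 115 ± 8.07 to 133 ± 5.27 CPM (SD, n = 4 each, log2 change 0.21 ± 0.06 SE, edgeR adjusted p = 0.0434). It also rose in footprints, from 80.0, 77.5 and 87.2 CPM to 97.3, 99.2 and 97.6 CPM, by 0.26 ± 0.063 (SE, edgeR adjusted p = 0.00064). The footprint call was kept in 11 of 11 alternatives and the RNA call in 8 of 17, with losses under the title prefix block and without mouse 1, 2, 3, 4, 6 or 7.

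Promoter windows of RefSeq (GRCm38.p6, 250 bases before to 50 after an annotated start) were matched for 69 of the 94 genes. Those of the 3 genes with the lowest adjusted p-value among the RNA rises are shown because 2 of them, Kcnj9 and Kcnj10, are neighbours. Capitals mark TATAAA, searched on both strands together with the cAMP response element TGACGTCA; these motifs cannot overlap.
Kcnj10, chr1:172340960-172341259, plus strand: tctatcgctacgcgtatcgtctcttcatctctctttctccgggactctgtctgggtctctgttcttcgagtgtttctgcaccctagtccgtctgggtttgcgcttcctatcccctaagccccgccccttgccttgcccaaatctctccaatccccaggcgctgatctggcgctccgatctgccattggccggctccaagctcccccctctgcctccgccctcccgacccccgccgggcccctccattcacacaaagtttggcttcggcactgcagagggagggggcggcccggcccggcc
Kcnj9, chr1:172329273-172329572, minus strand: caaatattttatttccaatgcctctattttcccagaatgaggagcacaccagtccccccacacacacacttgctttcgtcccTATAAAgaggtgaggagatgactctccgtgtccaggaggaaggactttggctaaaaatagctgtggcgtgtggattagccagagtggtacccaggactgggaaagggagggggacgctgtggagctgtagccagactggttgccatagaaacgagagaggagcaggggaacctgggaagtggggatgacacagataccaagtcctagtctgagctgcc
Kcnab1, the first of its 3 windows, chr3:64948962-64949261, plus strand: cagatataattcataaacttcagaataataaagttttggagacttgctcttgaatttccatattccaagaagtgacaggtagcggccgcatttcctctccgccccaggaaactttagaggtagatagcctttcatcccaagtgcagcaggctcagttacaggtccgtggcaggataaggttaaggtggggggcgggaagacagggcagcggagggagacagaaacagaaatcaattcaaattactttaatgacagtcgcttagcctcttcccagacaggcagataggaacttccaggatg
TATAAA was present in 1 of the windows shown, that of Kcnj9, and in another of the 3 Kcnab1 windows. It was in 2 of the 9 windows (22.2%) of channel genes called higher in RNA, and in 5 of the 94 windows of channel genes (5.32%), against 13.6% of all 32851 windows. TGACGTCA was in none of the 94, against 1.79% of all windows.

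Kcnj13, which encodes Kir7.1, a channel of the choroid plexus and the retinal pigment epithelium, was the channel gene with the largest falls. Its RNA was at 2.11, 3.11, 2.99 and 2.73 CPM in control mice and 1.56, 1.13, 1.86 and 1.09 CPM in KO mice, from 11 to 30 counts per library. Its footprints were at 4.48, 5.43 and 4.25 CPM and 1.66, 2.24 and 2.51 CPM, from 7 to 32 counts. Neither overlapped between genotypes. RNA fell by 0.97 ± 0.24 (SE, edgeR adjusted p = 0.0248) and footprints by 1.13 ± 0.32 (SE, edgeR adjusted p = 0.00475). The RNA call was lost without mouse 2 (edgeR adjusted p = 0.0628), 3 (0.0678), 4 (0.0943), 6 (0.0743) or 7 (0.0895), and in the exon columns (-0.68, edgeR adjusted p = 0.0619). Choroid plexus markers (Ttr, Folr1, Kl and Clic6) summed to 9.87 to 281 CPM in control RNA and 6.53 to 119 CPM in KO RNA, and to 12.5 to 14.4 CPM and 5.69 to 11.2 CPM in footprints. Of these, 1 of 3 tested was called lower in footprints (Ttr) and 0 of 3 in RNA, and Folr1 was near 0. The high RNA sums came from Ttr in control mouse 8 (263 CPM) and KO mouse 5 (104 CPM), against 0.348 to 9.62 CPM in the other mice, while Kcnj13 RNA was at 2.73 and 1.86 CPM in those libraries. The part of these markers in the fall of Kcnj13 was not tested. Kcnj13 also lies within Gigyf2 in RefSeq, whose footprints fell by 0.34 ± 0.054 (SE, edgeR adjusted p = 1.9e-07), from 141 ± 5.58 to 112 ± 5.40 CPM (SD, n = 3 each). Gigyf2 RNA was at 128 ± 15 CPM in control mice and 112 ± 9.16 CPM in KO mice (n = 4 each, SD), with a log2 fold change of -0.19 that was not called (edgeR adjusted p = 0.183). The part of Gigyf2 in the values of Kcnj13 was not tested.

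Two-pore-domain channels carry the leak current at rest. Of 9 tested in RNA, 1 was called (7.41% of all genes), and of 8 in footprints, 1 (25.5% of all genes). Kcnk9 encodes TASK3, an acid-sensitive leak channel. Its footprints were at 69.6, 65.3 and 73.9 CPM in control mice and 48.6, 58.7 and 56.1 CPM in KO mice, without overlap, and fell by 0.35 ± 0.077 (SE, edgeR adjusted p = 0.000185), a call kept in 11 of 11 alternatives. Kcnk9 RNA was at 42.2, 41.2, 37.1 and 41.7 CPM and 43.7, 39.6, 41.0 and 40.2 CPM, with overlap (0.02 ± 0.071 SE, edgeR adjusted p = 0.9). Its ratio fell by 0.38 ± 0.11 (SE, edgeR adjusted p = 0.0364). With the mouse as a block this was -0.33 and not called (edgeR adjusted p = 0.0637), and the call was also lost on plain library sizes (0.08), under the title prefix block (0.052) and without mouse 1 (0.0706), 2 (0.214), 4 (0.0531), 6 (0.077), 7 (0.0541), 9 (0.11) or 10 (0.0641). Kcnk4, the stretch-sensitive TRAAK channel, had RNA at 11.1, 10.7, 10.95 and 10.03 CPM in control mice and 14.1, 14.2, 12.4 and 14 CPM in KO mice. The groups did not overlap, and RNA rose by 0.36 ± 0.098 (SE, edgeR adjusted p = 0.0382). The call was lost without any 1 of mice 1, 2, 3, 4, 6, 7 and 8, with adjusted p-values of 0.0546 to 0.12 (edgeR), with DESeq2 (0.0592) and under the title prefix block (edgeR adjusted p = 0.0567). Kcnk4 footprints, at 9.52 ± 1.90 and 13.0 ± 0.964 CPM (SD, n = 3 each), had a log2 fold change of 0.44 ± 0.17 (SE, edgeR adjusted p = 0.0501).

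Of the auxiliary subunits, 4 of 10 were called in RNA, where 7.41% of all genes were, and 3 of 9 in footprints, near the 25.5% of all genes. All 9 had footprint log2 fold changes above 0, as did 50.9% of all genes. The Kvbeta subunits (Kcnab) attach to the inner side of Kv1 channels and speed their inactivation or carry them to the membrane. Kcnab1 RNA was at 78.5, 71.9, 75.8 and 88.5 CPM in control mice and 103, 106, 125 and 104 CPM in KO mice. All KO libraries were above all controls, and RNA rose by 0.48 ± 0.077 (SE, edgeR adjusted p = 0.00264). Its footprints were at 175, 165 and 158 CPM in control mice and 175, 181 and 169 CPM in KO mice, with overlap (0.08 ± 0.047 SE, edgeR adjusted p = 0.215). The Kcnab1 ratio fell by 0.41 ± 0.10 (SE, edgeR adjusted p = 0.0156). That call was lost without mouse 1 (edgeR adjusted p = 0.0657), 2 (0.0513), 3 (0.058) or 10 (0.0543), and in the exon columns, where RNA rose by 0.30 (edgeR adjusted p = 0.0204) and the ratio was at -0.21 (edgeR adjusted p = 0.194). Kcnab3 rose in RNA from 22.6 ± 0.919 to 27.5 ± 0.331 CPM (SD, n = 4 each) and in footprints from 41.9 ± 2.98 to 49.9 ± 2.89 CPM (SD, n = 3 each). The changes were 0.29 ± 0.07 (SE, edgeR adjusted p = 0.0239) and 0.25 ± 0.087 (SE, edgeR adjusted p = 0.0251), and in the exon columns the RNA change was 0.08 (edgeR adjusted p = 0.405). The RNA call was also lost without mouse 1, 2, 4, 6 or 7, and the footprint call without mouse 1, 4, 9 or 10, with DESeq2 and in the single fit over all 14 libraries.

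The KChIP subunits (Kcnip) bind Kv4 channels such as Kcnd2, raise their number at the surface and shape their A-type current. Kcnip4 footprints were at 81.2, 84.8 and 84.9 CPM in control mice and 116, 119 and 119 CPM in KO mice. The gap between the groups was many times the spread within them, and footprints rose 1.41-fold, by 0.50 ± 0.059 on the log2 scale (SE, edgeR adjusted p = 2.31e-11), a call kept in 11 of 11 alternatives. Kcnip4 RNA was at 39.9, 40.6, 45.3 and 42.4 CPM in control mice and 42.1, 44.6, 49.8 and 48.2 CPM in KO mice, with overlap (0.13 ± 0.076 SE, edgeR adjusted p = 0.314). The Kcnip4 ratio rose by 0.36 ± 0.095 (SE, edgeR adjusted p = 0.0222), and the call was lost without mouse 2 (edgeR adjusted p = 0.0906), 4 (0.103), 6 (0.0531) or 10 (0.0516). Kcnip3 (also known as DREAM, a calcium-binding repressor of transcription) rose in footprints by 0.15 ± 0.054 (SE, edgeR adjusted p = 0.026), and Kcnip2 rose in RNA by 0.21 ± 0.059 (SE, edgeR adjusted p = 0.0411). Kcnip3 lost its call with DESeq2, in the single fit over all 14 libraries and without mouse 1, 2, 4 or 9. Kcnip2 lost its call in the exon columns, with no filter on low counts, under the title prefix block and without mouse 1, 2, 3, 4, 6 or 7. In the ratio Kcnip2 was at -0.14 (edgeR adjusted p = 0.474) and Kcnip3 at 0.10 (edgeR adjusted p = 0.57), neither called.

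Kcne1l, a single-pass subunit of the Kcne family, had RNA at 2.42, 3.11, 3.43 and 3.21 CPM in control mice and 1.76, 1.31, 1.74 and 1.78 CPM in KO mice, from 15 to 33 counts per library. The groups did not overlap, and RNA fell by 0.89 ± 0.21 (SE, edgeR adjusted p = 0.0207). The call was lost without mouse 2 (edgeR adjusted p = 0.0581), 3 (0.0506), 4 (0.0815), 6 (0.0652) or 7 (0.0571). In the exon columns RNA fell by 0.45 (edgeR adjusted p = 0.0442). Kcne1l footprints were at 4.96, 3.73 and 6.38 CPM and 6.17, 3.58 and 5.86 CPM, fully overlapping (0.05 ± 0.26 SE, edgeR adjusted p = 0.91).

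With the mouse as a block, which rests on mice 1 to 4, 11 channel genes were called in the ratio in place of 7. Of the 7, 6 were among them and Kcnk9 was not, and those added included Kcnf1, Kcnj9 and Kcnt1 (lower) and Kcns3 (higher).

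In control mice the footprint to RNA ratio, as CPM over CPM, differed widely among the channel genes. Its median was 0.791 over the 70 genes tested, against 0.912 over all 12145 genes. Auxiliary subunits had a median of 1.65 (9 genes), inward rectifiers 0.822 (11), two-pore-domain channels 0.789 (8), voltage-gated subunits 0.770 (35) and calcium- or sodium-activated channels 0.539 (7). Kcnj10 was highest at 6.20, followed by Kcng1 at 3.49, Kcnab1 at 2.11 and Kcnip4 at 1.99. The 4 lowest were Kcnq3 at 0.20, Kcnn1 at 0.209, Kcns3 at 0.213 and Kcnk13 at 0.286. In mice 1 and 3, which gave both assays, Kcnj10 had ratios of 6.69 and 6.55 and Kcnq3 0.204 and 0.222, so the 2 mice were close for both genes. In KO mice 2 and 4 Kcnj10 was at 4.64 and 4.46 and Kcnq3 at 0.183 and 0.176. The order depended on the RNA columns used. With the exon columns, an alternative added after the data were seen, Kcnj10 was at 1.45 and rank 7 of the 70, Kcng1 was highest at 3.98, Kcnab1 was at 1.37, Kcnip4 at 1.22 and Kcnq3 at 0.343. The medians were then 0.954 for auxiliary subunits, 0.732 for inward rectifiers, 0.670 for two-pore-domain channels, 0.626 for voltage-gated subunits and 0.619 for calcium- or sodium-activated channels.

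**Figure D5:**
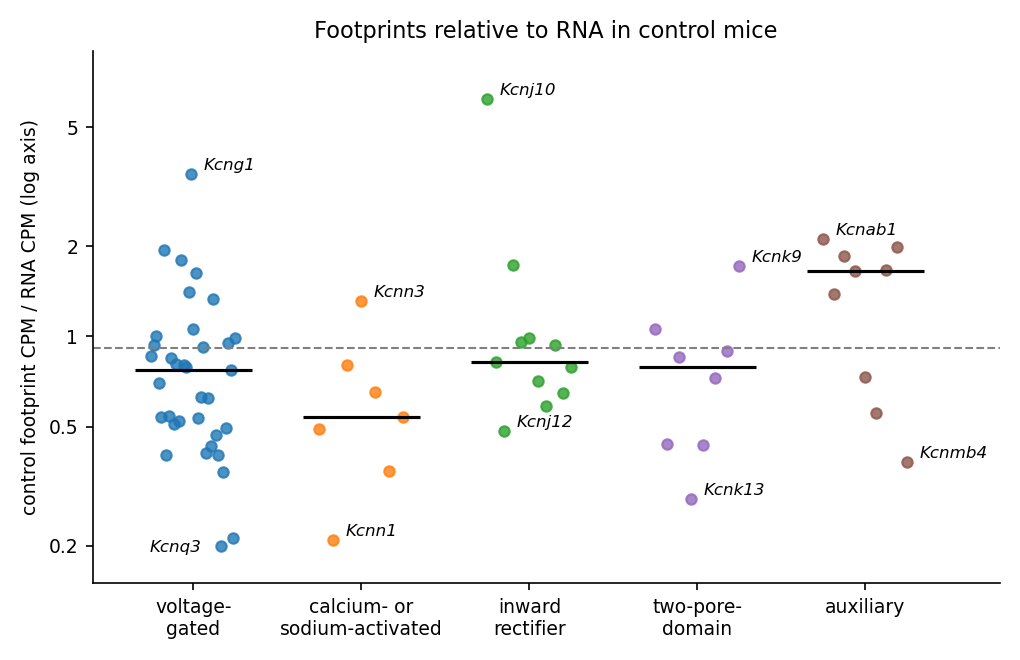
Control footprint CPM divided by control RNA CPM (y axis, log scale) of each of the 70 tested channel genes by class, with class medians as bars and the median of all genes tested (0.912) as a dashed line. The auxiliary subunits have the highest class median at 1.65, and Kcnj10 is the highest single gene at 6.20 (1.45 with the exon columns).

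Genes whose products bind, traffic or anchor potassium channels were read from a list of 31, of which 27 were tested. In RNA 1 was called higher (3.53% of all genes) and 4 lower (3.88%), in footprints 2 higher (11.9%) and 10 lower (13.6%), and in the ratio 0 higher (3.4%) and 1 lower (4.41%). The 2 footprint rises were those of Vapa, whose protein tethers the endoplasmic reticulum to other membranes (0.22 ± 0.031 SE, edgeR adjusted p = 7.9e-09), and of Adam23, a membrane protein of the ADAM family (0.17 ± 0.041 SE, edgeR adjusted p = 0.000844). The calmodulin genes Calm2 and Calm3, whose protein is a built-in subunit of SK channels, fell in footprints by 0.33 ± 0.022 and 0.14 ± 0.022 (SE, edgeR adjusted p = 2.41e-23 and 1.19e-07) and in RNA by 0.34 ± 0.051 and 0.21 ± 0.049 (SE, edgeR adjusted p = 0.00197 and 0.0211). Akap5, a scaffold that brings kinases to channels, fell in footprints by 0.40 ± 0.047 (SE, edgeR adjusted p = 1.23e-11) and in RNA by 0.25 ± 0.058 (SE, edgeR adjusted p = 0.0206). Footprints also fell for Ank3, which anchors channels at the axon initial segment (by 0.25 ± 0.033 SE, edgeR adjusted p = 1.64e-09), for Cntnap2, which clusters Kv1 channels along axons (by 0.20 ± 0.036 SE, edgeR adjusted p = 3.76e-06), and for Dpp6, a partner of Kv4 channels (by 0.13 ± 0.033 SE, edgeR adjusted p = 0.00195). Abcc8, the sulfonylurea receptor of ATP-sensitive channels, was called in all 3 measures, higher in RNA (0.28 ± 0.078 SE, edgeR adjusted p = 0.0424) and lower in footprints (-0.27 ± 0.097 SE, edgeR adjusted p = 0.0287) and in the ratio (-0.56, edgeR adjusted p = 0.0121). In the exon columns the RNA calls of Abcc8 (0.30, edgeR adjusted p = 0.037) and Calm2 (-0.20, edgeR adjusted p = 0.03) were kept. Those of Calm3 (-0.14, edgeR adjusted p = 0.229) and Akap5 (-0.14, edgeR adjusted p = 0.111) were lost.

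Besides Kcnq1ot1, 19 genes had too few counts for a test in both assays. They included 5 with no RNA count and 8 with no footprint count in any library, and the highest level among them was 1.7 CPM. Kcnh8, Kcnj5, Kcnk6 and Kcnmb2 were tested in RNA alone and were not called. Kcnq1ot1, a noncoding RNA that overlaps Kcnq1, had values only in the exon columns. There it was at 88.9, 97.2, 71.9 and 52.6 CPM in control mice and 104.9, 108, 46.9 and 105 CPM in KO mice. Control mice 6 and 8 and KO mouse 5 were below the other mice, and the log2 fold change of 0.24 ± 0.23 (SE) was not called (edgeR adjusted p = 0.574).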

How the data were processed

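The data are raw read counts per gene deposited by the authors for 8 RNA and 6 footprint libraries of mouse cortex. The submitters' processing notes name Bowtie2, STAR 2.5, featureCounts, Subread 1.4.6 and the builds mm9 and mm10, without their roles. The counted region and the strand setting are not given in the sources used here. RNA has a count column without a suffix, used here, and a second one marked exon, used as an alternative. Counts were fitted with edgeR 4.0.16 (R 4.3.3, limma 3.58.1): TMM scaling, the filterByExpr filter at a minimum count of 10, and the quasi-likelihood F test of genotype in each assay. The footprint to RNA ratio is the interaction of genotype and assay over all 14 libraries. P-values were adjusted by Benjamini-Hochberg over all genes tested, with a threshold of 0.05, and SE is the log2 fold change divided by the root of F. The code was tested on simulated data.

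The members and lists were chosen with earlier results of these data known. Genes given in full were the reported FMRP targets or partners, every member called in the ratio, and the 4 called members with the largest rise and fall in each assay at a mean of at least 1 CPM. Members of their subfamilies and other called or extreme genes were named after their values were seen, and a few genes are not reported here. Levels per coding kilobase were not computed, as no coding lengths were used here. Alternatives were DESeq2 1.42.0, plain library sizes, no filter, blocks for the mouse or the shared title prefix, the exon columns, subsets of libraries and leaving out each mouse. Mice 1 to 4 gave both RNA and footprints, so these libraries are paired by animal. Their deviations from the group means correlated at 0.00283, 0.0108, 0.0353 and -0.0123 over 12145 genes in mice 1 to 4.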

Additional observations from a re-analysis of the deposited data

Results flagged for a closer look

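In groups of 4 RNA libraries of the genes given in full, a library was set apart when its gap to the nearest other library was large for the range of the group (Dixon's test at the 95% level). Of 46 groups examined 6 held such a library, where chance gives about 1 in 20 groups, or 2.3, if libraries and genes are independent. The groups share the same libraries. The chi-square per degree of freedom was 1.18 to 1.32 among KO mice 2, 4 and 7 and 5.64 to 6.02 between these and mouse 5. The 6 groups can therefore not be weighed against 2.3. KO mouse 5 was set apart in 4 of the 6 groups. Its Kcnma1 RNA was at 374 CPM, with 269 to 278 CPM in the other KO mice. Its Kcnab1 RNA was at 125 CPM, with 103 to 106 CPM in the others. It was low in Kcnt1 RNA, at 90.6 CPM against 107.5 to 107.6 CPM, and in Kcnk4 RNA, at 12.4 CPM against 14 to 14.2 CPM. Control mouse 8 had Kcnt1 RNA at 106 CPM, with 91.7 to 92.0 CPM in the other controls. KO mouse 4 had Kcne1l RNA at 1.31 CPM, with 1.74 to 1.78 CPM in the other KO mice.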

How the results depend on the processing

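The 11 channel genes called in RNA became 2 when the libraries of KO mice 2, 4 and 7 were added up, 22 in mice 1 to 4 alone, 1 in mice 5 to 8 alone, and 3 to 17 when each mouse was left out in turn. The RNA median of 0.10 became 0.071 in the exon columns and 0.046 in mice 5 to 8. The 19 called in footprints became 10 with DESeq2 and 12 in one fit over all 14 libraries, all of them among the 19. Footprint calls over all genes went from 3102 with edgeR to 1801 with DESeq2. The footprint median of 0.037 became 0.097 on plain library sizes, where that of all genes went from 0.0054 to 0.065. The channel gene median became 0.020 without a filter, and 0.0095 to 0.046 when each mouse was left out. The 7 called in the ratio became 4 on plain library sizes, 4 in the exon columns, 3 with the summed library, 12 in mice 1 to 4, and 2 to 8 when each mouse was left out. With the mouse as a replicate block, pairing the libraries of the same animal, 11 were called. The ratio median of -0.094 became -0.030 on plain library sizes, where that of all genes went from -0.011 to 0.054. The channel gene median became -0.031 in the exon columns, -0.13 in mice 1 to 4, and -0.11 to -0.057 when each mouse was left out. Calls over all genes in the ratio went from 949 to 1071 on plain library sizes. They are not given here for the subsets and blocks, so those counts do not show whether channel genes moved more than others. The cause of the shifts in counts and medians was not tested. Over the alternatives for the genes given in full, 584 values kept their side of the threshold, 83 lost a call, 13 gained one and none changed direction as a call. The 584 include values not called in the main fit that stayed uncalled, so they are not a count of calls kept. The calls of Kcns3 (footprints), Kcnj13 (RNA and footprints) and Kcne1l (RNA) rest on 7 to 33 counts per library.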
